A study of Homo sapiens with 6 samples.

Results

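KIF23, a kinesin of the dividing cell, was studied together with 9 genes whose proteins work with it in cytokinesis, namely RACGAP1, ECT2, KIF20A, PRC1, PLK1, AURKB, INCENP, ANLN and CIT. These 10 genes were taken by symbol from the deposited table of 58302 genes, and all 10 were found. Human colorectal cancer (CRC) cells of the established epithelial lines SW480 and DLD-1, both wild-type and untreated, were each sequenced as Input RNA, as RNA pulled down with a NAT10 antibody (RIP-seq), and as RNA pulled down with an antibody against N4-acetylcytidine, or ac4C (acRIP-seq). Wild-type here does not extend to p53, for which the paper describes both lines as mutant. Each group was 1 library without replicates, so no p-value was computed, each difference compares libraries, and the errors given cover counting only.

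Cytokinesis splits a dividing cell after its chromosomes have separated. KIF23 pairs with RACGAP1 to form centralspindlin, which bundles microtubules at the spindle midzone and recruits ECT2 to set up the contractile ring. PRC1 crosslinks antiparallel microtubules there, and the kinesin KIF20A works at the same place. AURKB and its scaffold INCENP belong to the chromosomal passenger complex, PLK1 is a mitotic kinase that licenses ECT2 recruitment, and ANLN (anillin) and CIT (citron kinase) organise the ring and the midbody. NAT10 is the enzyme that places ac4C on RNA, and RIP-seq and acRIP-seq ask which transcripts it binds and which carry the mark.

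The ac4C peak that both lines had in common on KIF23 lies in the 3′-UTR, at chr15:69448128-69448397 on the plus strand (GRCh38), and ends 30 bases before the end of the gene. The authors' lists mark 1 site in it of a 12-base pattern with C at bases 1, 4, 7 and 10 and any base elsewhere, searched on the transcript strand. The study made RNA probes of this peak with the site intact and changed, and the 30 bases around the site are shown because this is the member sequence that the study itself altered. They were copied from the probe sequences and lie at chr15:69448184-69448213, and the capitals mark the 12-base site:

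KIF23 wild-type: uuauugugaCUUCUCCAGCCCuggucugaa

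KIF23 mutant: uuauugugaAUUAUCAAGCCCuggucugaa

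Counted from the first base of the site, the mutant carries the substitutions C1A, C4A and C7A, and the pattern is found 1 time in the wild-type probe and 0 times in the mutant. The last of the 4 Cs is still present. The paper proposes a shorter motif here, CUUCUCCAG, of the form CXXCXXCXX. The substitutions change every C that this shorter form fixes. The probe is 271 bases long, 1 more than the peak, so without the genome sequence the coordinates of the window may be off by 1 base. The probe holds 40 Cs (14.8% of its bases), and 68.6% of it is A or U. A site of this pattern was not particular to this peak, since 57.8% of the 287 SW480 peaks and 58.5% of the 424 DLD-1 peaks of the same length held at least 1.

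The RIP and Input libraries did not pair by label, and every RIP result below is therefore given over the Input of the same label and over the other one, called the opposite Input. Over 16196 protein-coding genes above 0 in at least 1 of the 4 libraries, Pearson's r of log2(FPKM + 1) was 0.871 between the RIP and the Input labelled SW480, and 0.944 between that RIP and the Input labelled DLD-1. The RIP labelled DLD-1 gave 0.856 with the Input of its own label and 0.951 with the other. FPKM is the number of fragments of a gene scaled by its length and by the depth of the library. The Inputs are also quantified in the table that came with acRIP-seq, and there each Input was closest to the Input of its own label (0.963 and 0.957). Whether any library carries a wrong label was not tested. Reads recovered from the FPKM values summed to between 10772667 and 25514585 per library in the RIP table and to at least 5889871 in the acRIP table. All 7 epithelial markers checked (EPCAM, CDH1, KRT8, KRT18, KRT19, CDX2 and VIL1) were above 0 in every library, with sums of 913 to 3342 FPKM. VIL1 was the exception in level, at 0.26 FPKM in the Input labelled DLD-1 and at most 2.89 FPKM in any library. The markers of leukocytes, endothelium and fibroblasts (PTPRC, PECAM1, COL1A1 and COL3A1) reached at most 0.381 FPKM. COL1A1, at 0.24 FPKM in the Input labelled SW480, nevertheless had 6 ac4C peaks in the SW480 list and 0 in the DLD-1 list. PTPRC, PECAM1 and COL3A1 had no peak in either list. VIM, a filament gene of mesenchymal cells that was singled out after its values were seen, stood at 128 FPKM in the RIP labelled SW480 and 0.077 FPKM in the Input of that label. For DLD-1 it stood at 0.80 FPKM in the RIP and 11.1 FPKM in the Input. The acRIP table listed VIM at 0.088 FPKM for SW480 and 51.2 FPKM for DLD-1. VIM had 1 ac4C peak in the SW480 list and 0 in the DLD-1 list.

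All 10 genes were more abundant in the Input labelled SW480 than in the Input labelled DLD-1, in both tables. Each line has 1 Input sample, so the acRIP table is not counted as an independent measure of the lines. On the scale log2((FPKM + 1)/(FPKM + 1)), with a pseudocount of 1, the difference ran from 0.13 for INCENP to 1.92 for ECT2 in the RIP table, with a median of 0.90. The median of the 12324 genes tested, those that reached 1 FPKM in each Input of the RIP table, was -0.03. Of the 10 genes, 5 (ECT2, PRC1, CIT, ANLN and KIF20A) were at least 2-fold higher in the Input labelled SW480, a level that 7.25% of all genes tested reached. By the acRIP table it was 4 of the 10, against 9.52% of all genes, and PRC1 fell just short there (0.98 ± 0.21, counting SE). That SE is an upper limit, since it rests on the smallest whole reads that fit, 129 and 62 for PRC1. The acRIP table listed the 10 genes at 14.5 (RACGAP1) to 52.6 FPKM (ECT2) for SW480 and at 5.80 (CIT) to 19.1 FPKM (AURKB) for DLD-1. In the RIP table the 10 genes rested on 678 to 7790 recovered reads per library. A lower share of dividing cells and less of each RNA per cell cannot be told apart in bulk RNA.

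In the RIP libraries the order of the labels was the opposite. All 10 genes were higher in the RIP labelled DLD-1 than in the RIP labelled SW480, by 1.13-fold (INCENP) to 2.48-fold (ECT2) on the scale of FPKM + 1. ECT2 and PRC1 passed 2-fold, as 6.17% of all genes did in that direction. The median difference, SW480 over DLD-1, was -0.71 for the 10 genes and 0.02 for all genes tested.

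**Figure D1:**
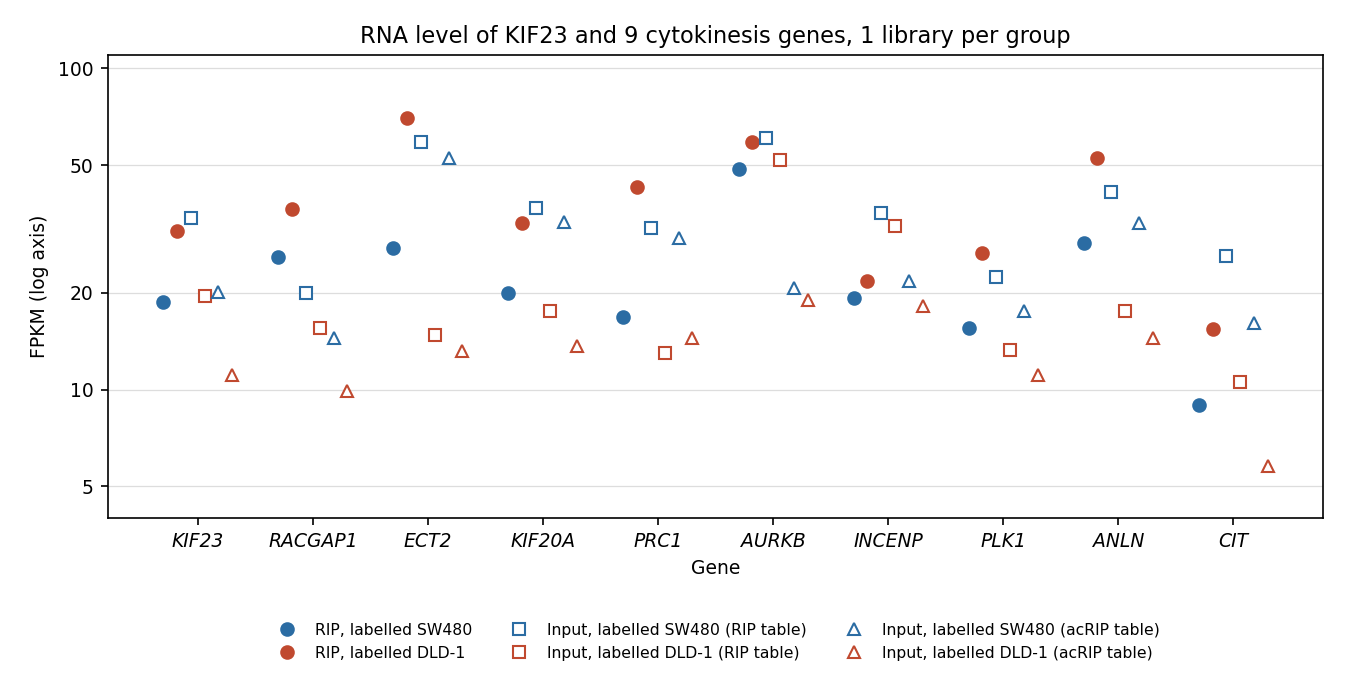
FPKM (log axis) of the 10 genes in the RIP libraries (filled circles) and in the Inputs of the RIP table (squares) and the acRIP table (triangles), with 1 library per point and no error bars. Every gene is higher in the Input labelled SW480 (blue) than in the Input labelled DLD-1 (red), and higher in the RIP labelled DLD-1 than in the RIP labelled SW480.

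For the centralspindlin pair, the labels gave different pictures for the motor and for its partner. KIF23 stood at 34.3 FPKM in the Input labelled SW480 and at 18.8 FPKM in the RIP of that label. In the libraries labelled DLD-1 it stood at 19.6 FPKM in the Input and 31.2 FPKM in the RIP. The lower values and the higher values thus cross the labels. Its RIP over Input ratio was -0.84 ± 0.044 (log2, counting SE) for SW480 and 0.64 ± 0.051 for DLD-1. Over the opposite Input it was -0.06 ± 0.053 and -0.13 ± 0.042, closer to 0 with both RIP libraries. The acRIP table listed KIF23 at 20.2 FPKM for SW480 and 11.1 FPKM for DLD-1.

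RACGAP1, the GTPase-activating partner of KIF23, alone among the 10 genes was above Input with every Input tried. It stood at 19.9 and 15.6 FPKM in the Inputs labelled SW480 and DLD-1, and at 25.8 and 36.4 FPKM in the RIP libraries of those labels. Both RIP values lay above both Inputs. The ratio was 0.36 ± 0.053 for SW480 and 1.18 ± 0.058 for DLD-1, and 0.70 ± 0.059 and 0.84 ± 0.052 over the opposite Input. With the Inputs of the acRIP table (14.5 and 9.93 FPKM), scaled to the same median ratio of coding genes, it stayed between 0.25 and 1.18.

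ECT2, a guanine nucleotide exchange factor, spread the most. It had 58.8 and 14.8 FPKM in the Inputs labelled SW480 and DLD-1, against 27.7 and 70.2 FPKM in the RIP libraries. The acRIP table gave a like gap between the Inputs, at 52.6 and 13.2 FPKM. Its ratio was -1.06 ± 0.033 for SW480 and 2.18 ± 0.048 for DLD-1, the widest gap between labels of the 10 genes. Over the opposite Input it was 0.86 ± 0.051 and 0.25 ± 0.028. With the opposite Inputs of the acRIP table, scaled, it was 0.47 and -0.20, so its side of 0 with the RIP labelled DLD-1 depended on the table.

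The midzone proteins followed KIF23 closely in one case and less so in the other. KIF20A had 36.7 and 17.6 FPKM in the Inputs labelled SW480 and DLD-1 and 20.04 and 33.1 FPKM in the RIP libraries, the nearest to KIF23 of the other 9 genes. Its ratio was -0.84 ± 0.046 and 0.87 ± 0.056 by label, and 0.18 ± 0.059 and -0.15 ± 0.043 over the opposite Input. PRC1 had 31.9 and 13.0 FPKM in the Inputs and 16.8 and 42.8 FPKM in the RIP libraries, with the highest value in the RIP labelled DLD-1. The ratio of PRC1 was -0.89 ± 0.044 for SW480 and 1.64 ± 0.054 for DLD-1, and 0.34 ± 0.058 and 0.41 ± 0.038 over the opposite Input. Both signs turned with the opposite Inputs of the acRIP table, at -0.35 and -0.09.

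The chromosomal passenger genes showed the smallest gaps between labels. AURKB, the kinase of the complex, had 60.8 and 52.0 FPKM in the Inputs labelled SW480 and DLD-1 and 48.7 and 59.0 FPKM in the RIP libraries. It was the most abundant of the 10 genes in 3 of these 4 libraries, including both Inputs, although its lead over ECT2 in the Input labelled SW480 did not exceed counting error. Its ratio was -0.31 ± 0.054 and 0.18 ± 0.058 by label, and -0.09 ± 0.058 and -0.04 ± 0.054 over the opposite Input. AURKB also differed most between the tables, since the acRIP table listed it at 20.8 and 19.1 FPKM, and with those Inputs, scaled, its ratio lay between 0.64 and 0.96. INCENP was below Input in every combination. It had 35.4 and 32.3 FPKM in the Inputs and 19.2 and 21.8 FPKM in the RIP libraries, both RIP values below both Inputs. The ratio of INCENP was -0.85 ± 0.042 and -0.54 ± 0.045 by label, and -0.72 ± 0.044 and -0.67 ± 0.043 over the opposite Input.

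PLK1, the polo-like kinase, moved as KIF23 did at a lower level. It had 22.4 and 13.3 FPKM in the Inputs labelled SW480 and DLD-1 and 15.6 and 26.6 FPKM in the RIP libraries. The ratio was -0.50 ± 0.049 and 0.95 ± 0.056 by label, and 0.22 ± 0.058 and 0.24 ± 0.046 over the opposite Input. With the opposite Inputs of the acRIP table, scaled, it was -0.09 and -0.01, so its side of 0 depended on the table.

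The genes of the ring and midbody parted from each other. ANLN, which links actin, myosin and septins in the ring, had 41.4 and 17.6 FPKM in the Inputs labelled SW480 and DLD-1 and 28.6 and 52.7 FPKM in the RIP libraries. Its ratio was -0.52 ± 0.034 and 1.53 ± 0.044 by label, and 0.67 ± 0.046 and 0.34 ± 0.032 over the opposite Input. CIT was the least abundant of the 10 genes in both RIP libraries and in the Input labelled DLD-1, with 26.1 and 10.6 FPKM in the Inputs and 8.96 and 15.5 FPKM in the RIP libraries. It had the lowest ratio for SW480, at -1.44 ± 0.036, and 0.51 ± 0.044 for DLD-1. Over the opposite Input it was below 0 with both RIP libraries, at -0.21 ± 0.046 and -0.72 ± 0.034. With the opposite Inputs of the acRIP table it was 0.05 and -0.65.

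Set against the Input of the same label, the 10 genes lay below Input in SW480 and above it in DLD-1. In SW480, 9 of 10 were below Input and 2 (ECT2 and CIT) by at least 2-fold, as were 16.0% of all genes tested, and 0 of 10 were at least 2-fold above, as were 15.6%. In DLD-1, 9 of 10 were above Input and 4 (ECT2, PRC1, ANLN and RACGAP1) by at least 2-fold, as were 15.1% of all genes, and 0 were at least 2-fold below, as were 19.2%. Of the 10 genes, 8 were below Input in SW480 and above it in DLD-1, a pattern shown by 19.5% of all genes. The medians were -0.84 and 0.91, against 0.05 and -0.05 for all genes. Above the Input of the same label lay 52.4% of all genes tested in SW480 and 47.7% in DLD-1.

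Set against the opposite Input, the 10 genes lay on both sides of 0 with each RIP library. With the RIP labelled SW480, 6 of 10 were above Input with a median of 0.20, and with the RIP labelled DLD-1, 5 of 10 with a median of 0.10. These counts were close to the shares of all genes tested above the opposite Input, 50.9% and 49.7%. None of the 10 reached 2-fold in either direction. Of all genes, 9.24% were at least 2-fold higher and 11.7% at least 2-fold lower with the RIP labelled SW480, and 9.36% and 11.8% with the RIP labelled DLD-1. With these Inputs of the RIP table, RACGAP1, ECT2, PRC1, PLK1 and ANLN were above Input, and INCENP, CIT, KIF23 and AURKB below it, with both RIP libraries, although the intervals of KIF23 and AURKB reached 0 in at least 1 of them. With the opposite Inputs of the acRIP table, scaled, RACGAP1, ANLN and INCENP were the members of these groups that kept their side with both RIP libraries, and KIF23 (0.17 and 0.01) and AURKB (0.76 and 0.87) lay above 0. These ratios use the same 4 libraries as those by label, and they are no independent measure.

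**Figure D2:**
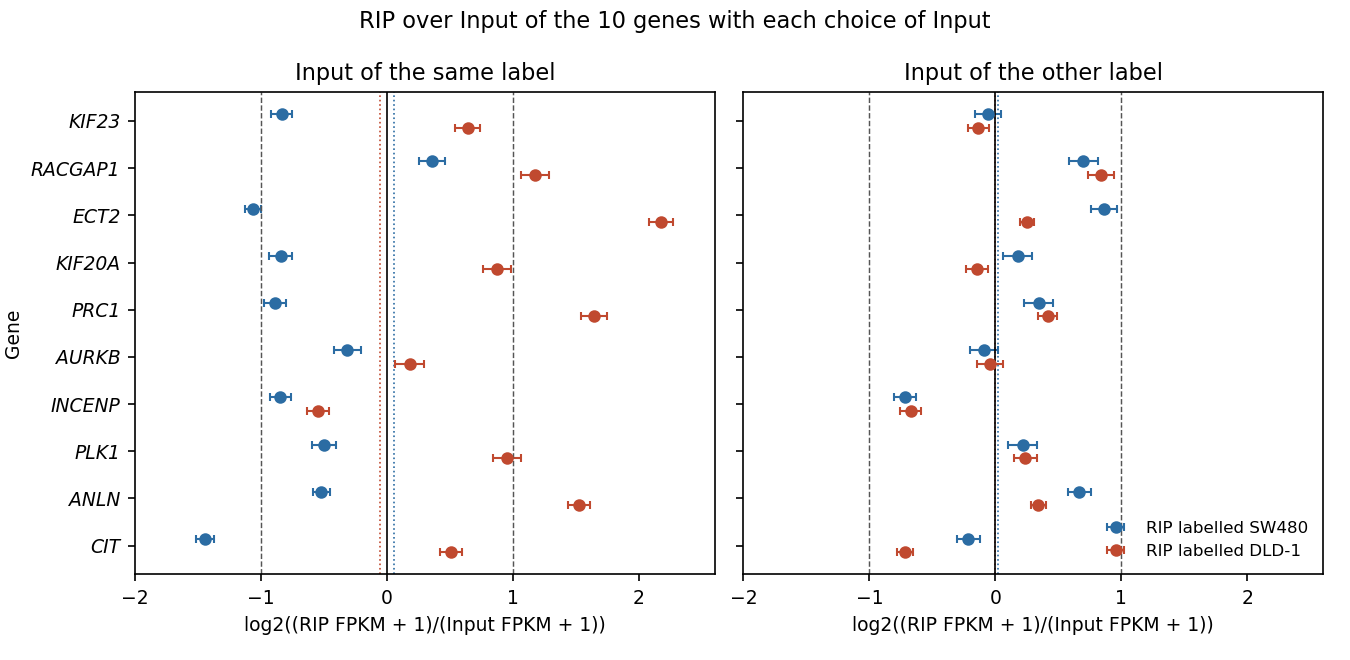
Log2 ratio of RIP to Input for the 10 genes, over the Input of the same label (left) and the opposite Input (right), for the RIP labelled SW480 (blue) and DLD-1 (red). Bars are 95% counting intervals, dashed lines mark 2-fold and dotted lines the median of the 12324 genes tested. On the left 8 genes have the colours on opposite sides of 0, and on the right all points lie within 2-fold.

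NAT10, the protein precipitated, was measured as RNA at 21.2 and 23.0 FPKM in the Inputs labelled SW480 and DLD-1 and at 20.8 and 14.3 FPKM in the RIP libraries. Its own RNA was thus not above Input in either line, with ratios of -0.03 and -0.65, and over the opposite Input they were -0.14 and -0.54.

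Other genes of cell division were taken from 2 lists chosen by function. The 20 mitotic genes outside cytokinesis include cyclins, checkpoint kinases and kinetochore proteins. They went with the 10 genes in the Inputs and over the Input of the same label, but less so over the opposite Input. All 20 were higher in the Input labelled SW480, 10 of them by at least 2-fold (7.25% of all genes tested), with a median of 1.01 (-0.03 for all genes). By label, 13 of 20 lay below Input in SW480, 5 of them by at least 2-fold as did 16.0% of all genes, and 0 were above by as much, as were 15.6%. In DLD-1, 19 of 20 lay above Input, 14 by at least 2-fold as did 15.1% of all genes. The medians were -0.33 and 1.37, against 0.05 and -0.05 for all genes. Of the 20 genes, 12 were below Input in SW480 and above it in DLD-1, as were 19.5% of all genes tested. In SW480 the ratio was highest for AURKA, the spindle-pole kinase (0.76), and lowest for MKI67, the proliferation antigen (-2.05). In DLD-1 it was highest for CDK1, the kinase that drives entry into mitosis (2.40), and lowest for CENPF, a kinetochore protein (-0.20). Over the opposite Input, 17 and 16 of the 20 were above 0, with medians of 0.65 and 0.37. For the 10 genes the counts were 6 and 5, with medians of 0.20 and 0.10. Of all genes tested, 50.9% and 49.7% were above the opposite Input, and 52.4% and 47.7% above that of the same label.

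The 31 wider cytokinesis genes, among them septins, myosin II chains, formins and the abscission machinery, were mixed. In the Inputs 19 of 31 were higher in SW480, with a median of 0.22, against -0.03 for all genes tested. Of the 31, 2 were higher by at least 2-fold, as were 7.25% of all genes tested. By label, 15 of 31 were above Input in SW480, with a median of -0.03. Of these 31 genes, 3 were at least 2-fold above Input there and 0 as far below, against 15.6% and 16.0% of all genes. In DLD-1, 19 of 31 were above Input, with a median of 0.42, and 12 were at least 2-fold above and 5 at least 2-fold below, against 15.1% and 19.2% of all genes. Over the opposite Input, 20 and 19 of the 31 were above 0, with medians of 0.21 and 0.11. For all genes tested the shares were 50.9% and 49.7%, and 52.4% and 47.7% over the Input of the same label. MYL12A, a regulatory light chain of myosin II, had the highest ratio in SW480 (1.49), and MYH9, a myosin II heavy chain, the lowest (-0.88). CEP55, which recruits the abscission machinery to the midbody, had the highest ratio in DLD-1 (2.08), and MYH10, another myosin II heavy chain, the lowest (-1.29). MYL12A was above 2-fold with each of the 4 pairings of RIP and Input, with ratios from 1.47 to 1.69. None of the 10 genes did so.

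The 5 coding genes whose profile over the 4 libraries lay nearest to that of KIF23 were LCMT2, ZNF320, C5orf34, NBPF1 and ESRP1. Likeness was the Euclidean distance between centred log2(FPKM + 1) values among the 10349 coding genes tested. The distances of these 5 ran from 0.060 to 0.093, and the median gene lay at 1.07. KIF20A stood at rank 91 with a distance of 0.21, PLK1 at rank 330, CIT at 923 and AURKB at 965. ANLN, PRC1, INCENP, RACGAP1 and ECT2 came at ranks 2006 to 5656. LCMT2 and ZNF320 were low, at 1.36 to 3.17 FPKM, where the pseudocount flattens a profile, and 4 libraries make this a description only. With a pseudocount of 0.1, 1 of these 5 was still among the nearest 5.

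The ac4C peaks, called by the authors in each line, were on most of the 10 genes and were more numerous in DLD-1. In SW480, 13 peaks lay on 8 of the 10 genes, and in DLD-1, 35 peaks lay on 9 of them, with 7 genes holding a peak in both. ECT2 and INCENP had peaks in the DLD-1 list and none in the SW480 list, and the reverse held for CIT. Among all genes tested, 44.2% had a peak in SW480, 48.8% in DLD-1 and 34.4% in both. Genes as abundant as these 10 carried peaks more often. Among genes that reached 10 FPKM in each Input, a threshold chosen after the data were seen and passed by all 10, the shares were 64.5%, 70.7% and 55.8% of 4709 genes. The 10 genes stood at 80% and 90% for SW480 and DLD-1, 1 to 2 genes above these shares.

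Of the 10 genes, 8 had more peaks in DLD-1 than in SW480, and CIT had fewer. Of all genes tested 30.1% had more peaks in DLD-1, and 42.0% of those that reached 10 FPKM in each Input. The lists differ in size, with 13964 peaks in DLD-1 for 9536 in SW480, a ratio of 1.46, and the ratio for the 10 genes was 2.69. The ratio also moved with the Inputs. It was 2.09 over the genes tested that were at least 2-fold higher in the Input labelled SW480 and 0.99 over those at least 2-fold lower there. In the former set are 5 of the 10 genes. Of 161 coding genes with at least 5 FPKM in the Input labelled DLD-1 and under 0.2 FPKM in the Input labelled SW480, 34 had a SW480 peak and 22 a DLD-1 peak. The part of RNA level or of labels in the peak counts of the 10 genes was not tested. Peaks covered 3274 bases on the 10 genes in SW480 and 14120 bases in DLD-1. All peaks of the lists covered 2477017 and 4011131 bases.

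**Figure D3:**
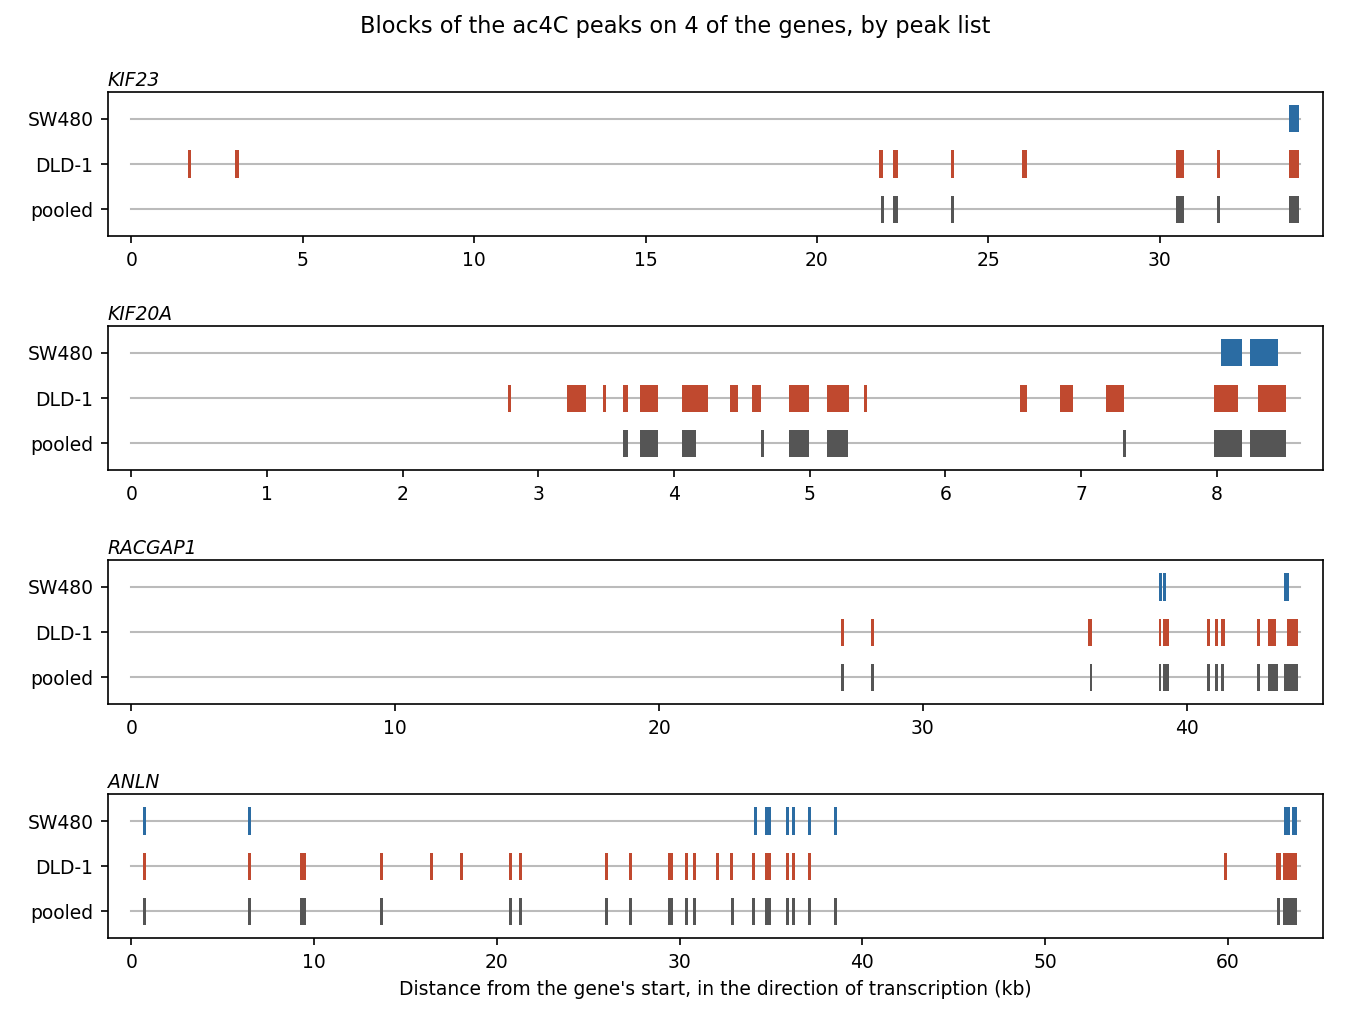
Blocks of the ac4C peaks on KIF23, KIF20A, RACGAP1 and ANLN, as distance in kb from the start of the RefSeq gene in the direction of transcription, in the lists for SW480 (blue), DLD-1 (red) and the pooled libraries (grey). Grey lines span the gene. Blocks narrower than the line are drawn at a minimum width. KIF23 has 1 peak in SW480, at its 3′ end, and 5 in DLD-1, of which the last is the same.

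On KIF23 (chr15:69414349-69448427), the 3′-UTR peak shown above was the only peak in SW480, with a fold of 67.7. The fold is the authors' enrichment of acRIP over Input in the peak. In DLD-1 the same peak had the same start and end and a fold of 57.4, and in the list called on the pooled libraries a fold of 112. Among the overlapping pairs of peaks on the 10 genes it alone had identical bounds, which 348 of the 9536 SW480 peaks (3.65%) had. Its fold was above that of 82.2% of the peaks of the SW480 list and 88.2% of those of the DLD-1 list. The other 4 peaks of KIF23 in DLD-1 lay in the coding sequence, with folds of 3.62, 51.1, 5.11 and 21.2 from the 5′ to the 3′ end.

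RACGAP1 (chr12:49989162-50033440, minus strand) had 2 peaks in SW480, in the 3′-UTR with a fold of 11.5 and in the coding sequence with 4.72. In DLD-1 its 3 peaks had folds of 53.5, 48.8 and 33.0, and 1 of them ran over 8 blocks and 1227 bases from the 3′-UTR into upstream exons. Both SW480 peaks overlapped a DLD-1 peak, by 61 and 150 bases. ECT2 (chr3:172750726-172829265) had 6 peaks in DLD-1, with folds from 3.21 to 92.8, 4 of them in the coding sequence and 2 in the 3′-UTR, and none in SW480. Its RNA was the most abundant of the 10 in the RIP labelled DLD-1 and ranked 7 of 10 in the Input of that label.

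KIF20A (chr5:138179112-138187723) had 2 peaks in SW480, both at its 3′ end. The fold of its 3′-UTR peak was 19.8 in SW480 and 20.5 in DLD-1, the closest pair of values among the 10 genes. In DLD-1 it had 4 other peaks, all in the coding sequence, the strongest with a fold of 123. PRC1 (chr15:90966040-90994535, minus strand) had 1 peak in SW480, in the 3′-UTR, with a fold of 22.9. The DLD-1 peak at that place had a fold of 14.2, and the other 4 in DLD-1 had folds of 13.4 to 71.6.

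AURKB (chr17:8204731-8210575, minus strand) had the highest fold of the 10 genes in SW480. Its peak near the 3′ end, at chr17:8204793-8205382 and listed as coding sequence, had a fold of 285 in SW480, above 96.6% of that list, and the DLD-1 peak that overlapped it by 419 bases had a fold of 31.0. INCENP (chr11:62124011-62153169), the gene below Input in every RIP ratio, had 2 coding-sequence peaks in DLD-1 with folds of 11.6 and 22.0. PLK1 (chr16:23678889-23690367) had 1 peak in SW480 at its 3′ end, with a fold of 22.9. The DLD-1 peak over it had a fold of 83.4, and 2 others upstream of it had 32.0 and 56.1. These PLK1 peaks are listed only as exonic.

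ANLN (chr7:36389862-36453791) had the strongest 3′-UTR peaks of the 10 genes in both lines. The SW480 peak at chr7:36452954-36453283 had a fold of 257, and a second one next to it, at chr7:36453372-36453671, had 54.7. In DLD-1, 1 peak of 808 bases covered both with a fold of 299, above 99.0% of the list. ANLN was also the only gene of the 10 with as many peaks in SW480 as in DLD-1, 4 in each. CIT (chr12:119685791-119877320, minus strand) had a single 3′-UTR peak of 211 bases in SW480 with a fold of 17.7. DLD-1 had none, and the pooled list held 1 at the same place with a fold of 18.1.

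Of the 13 SW480 peaks on the 10 genes, 12 overlapped a DLD-1 peak by at least 1 base on the same strand, as did 54.9% of all SW480 peaks, and CIT held the exception. Where an overlap of 50% of each peak was asked for, 5 of the 13 had one, as did 36.0% of all SW480 peaks. The fold was higher in DLD-1 in 9 of these 12 pairs and in 45.6% of all 5486 pairs. KIF23, PRC1 and AURKB were the genes with a higher fold in SW480. Of the 35 DLD-1 peaks, 11 (31.4%) overlapped a SW480 peak by at least 1 base, as did 36.3% of all DLD-1 peaks.

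By position, 7 of the 13 SW480 peaks (53.8%) lay in a 3′-UTR, close to the 53.0% of the whole list. Another 5 (38.5%) lay in coding sequence, against 24.3% of the list. In DLD-1, 11 of 35 (31.4%) lay in a 3′-UTR and 21 (60.0%) in coding sequence, against 41.5% and 38.4% of the whole list. None lay in a 5′-UTR in either line, a class with only 1.10% of all SW480 peaks and 1.54% of all DLD-1 peaks. A site of the 12-base pattern was listed in 6 of 13 SW480 peaks and 19 of 35 DLD-1 peaks, 46.2% and 54.3%, against 56.2% and 55.1% of all peaks. By length, the peaks of the 10 genes held 5.19 and 3.97 sites per kb in SW480 and DLD-1, and all peaks 5.13 and 4.64. PLK1 held the most, with 9 sites in its SW480 peak and 13 in the DLD-1 peak at the same end, whereas the ANLN 3′-UTR peaks with the folds of 257 and 54.7 held none.

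**Figure D4:**
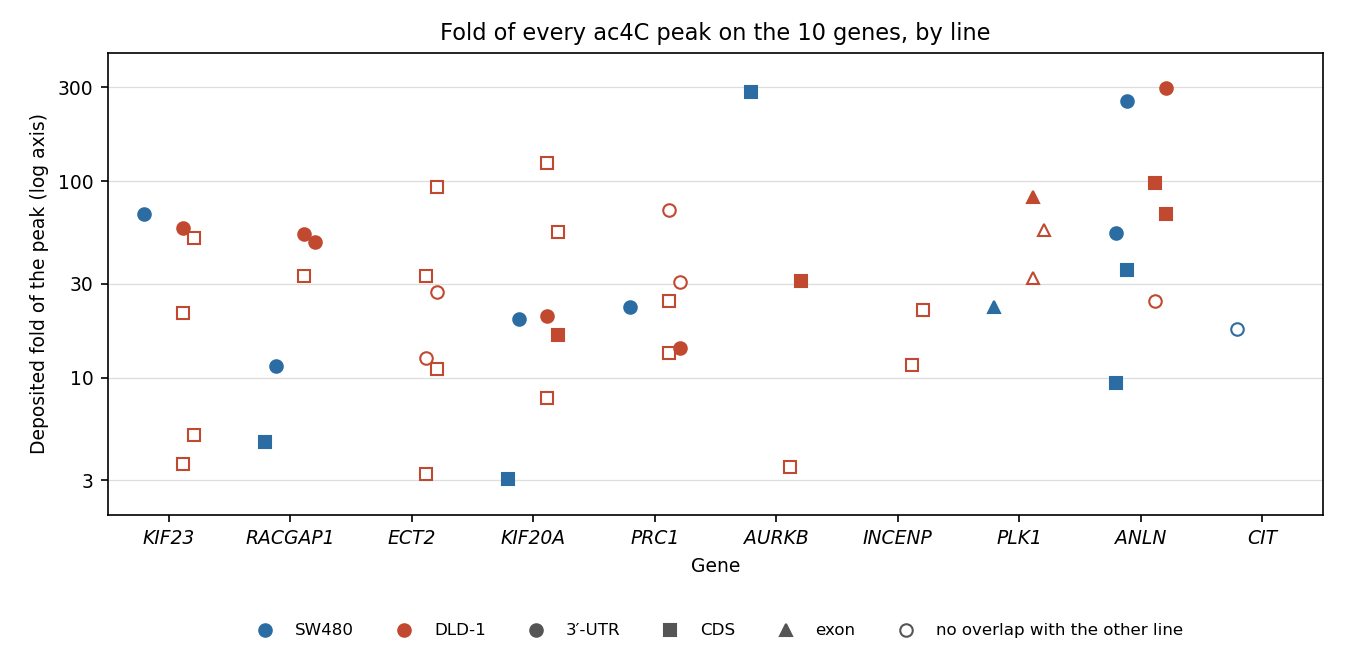
Deposited fold (log axis) of each of the 13 SW480 peaks (blue) and 35 DLD-1 peaks (red) on the 10 genes, by position class (circle 3′-UTR, square coding sequence, triangle exon). Filled symbols overlap a peak of the other line by at least 1 base. The highest folds are those of ANLN (257 and 299) and of AURKB in SW480 (285), and most open symbols belong to DLD-1.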

How the data were processed

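RNA of SW480 and DLD-1 was analysed from 6 libraries, 1 per group, grouped by their titles. The submitters' processing notes name cutadapt 2.5, HISAT2 2.1.0 and the builds GRCh38, hg38 and GRCm38. The counting tool and the peak caller are not given in the sources used here. The authors deposited FPKM values for RIP and Input, a second table whose Input values were read as FPKM, although its unit is not named, and ac4C peak lists for SW480, DLD-1 and the pooled libraries. Each deposited peak has a p-value and a fold (a ratio of acRIP to Input) given by the authors, used to describe peaks only. Their ratio columns of RIP over Input and the mean of these were not used. The labels give Input as the control, where the study's text names IgG.

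From these files the ratio log2((RIP FPKM + 1)/(Input FPKM + 1)) was computed in Python 3.11.15 with pandas 2.3.3 over the 12324 genes that reached 1 FPKM in each Input of the RIP table. At least 2-fold counted as called, and no test was run. Because FPKM values of a gene are whole multiples of 1 read, the smallest whole reads were recovered for 23494 of 23515 genes (16323 of 16324 in the second table), which makes the counting errors upper limits. They cover counting error only, since PCR copies are not independent molecules. The step was also run on simulated reads, but the outcome is not given here. Overlap of peaks meant 1 base or more in common between their blocks, on 1 strand. Deposited starts count from 0, and printed starts are moved by 1 base. Gene bounds are from RefSeq on GRCh38.p14, in which all 10 genes matched by symbol. Septins, whose symbols are dates in the file, were matched by gene ID.

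The genes named are the 10 members, NAT10, the 5 nearest to KIF23, and the highest and lowest RIP over Input ratio of each list per label. The members and both lists were chosen with earlier results of these data known, so their counts are descriptions. Alternatives were another pseudocount, the other Inputs, centring, stricter peaks, other overlap, the pooled list, another filter and a shorter pattern.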

Additional observations from a re-analysis of the deposited data

Results flagged for a closer look

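For 8 of the 10 genes the RIP over Input ratio lay below 0 with the label SW480 and above 0 with the label DLD-1, and the difference was not tested, since each label holds 1 RIP and 1 Input library. The ratio for SW480 minus that for DLD-1, on the log2 scale, was -3.24 for ECT2, -2.53 for PRC1, -2.05 for ANLN and -1.95 for CIT. It was -1.71 for KIF20A, -1.48 for KIF23, -1.45 for PLK1 and -0.49 for AURKB. RACGAP1 (above Input with both labels) and INCENP (below it with both) kept 1 side. Over the opposite Input, as the RIP table gives it, 9 of the 10 genes had the same sign with both RIP libraries, and KIF20A did not. With the opposite Inputs of the acRIP table, scaled, this held for 8 of the 10, and ECT2 and CIT were the exceptions. The share of all genes with the same sign was not computed, so these counts cannot set the 10 genes apart from other genes. Groups of 1 library leave no sample to set apart from its group.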

How the results depend on the processing

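No paired analysis was possible because each group holds 1 library. The alternative of peaks with a false discovery rate under 0.05 was not run, since that column holds spreadsheet errors. With the opposite Input, that of the other label, the members above Input went from 1 to 6 for the RIP labelled SW480 and from 9 to 5 for DLD-1, those at least 2-fold below in SW480 from 2 to 0, and those at least 2-fold above in DLD-1 from 4 to 0. The opposite Input of the acRIP table, scaled, gave 6, 4, 0 and 0 in the same order, and that of the same label 2 above and 4 at least 2-fold below in SW480. Centring on coding genes, whose medians were 0.18 and 0.07, put 6 members at least 2-fold below in SW480. ECT2 in SW480 turned from -1.06 to 0.86 and 0.47 with the opposite Input of either table. With that of the acRIP table, CIT in SW480 turned to 0.045, and ECT2 and PRC1 in DLD-1 to -0.20 and -0.087. The mitotic genes above Input in SW480 went from 7 to 17 with the other Input. With p under each list's median, 6 SW480 peaks on 5 members were kept, all 6 overlapping a DLD-1 peak. An overlap of 50% of each peak left 5 of 12 shared, and the pooled list held 32 peaks on the members against 13 in SW480. A pseudocount of 0.1 kept 1 of the 5 genes nearest to KIF23, and 39 of 40 single ratios moved by less than their counting interval. The shorter pattern with 3 Cs was found 2 times in the wild-type KIF23 probe and 0 times in the mutant. Both matches lie within the 12-base site, which holds 2 by its form, so they are no second site. The other counts of genes and peaks stayed within 1.5 times. No value here has a replicate error, and the depth of the acRIP libraries is unknown.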

Other observations

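The pooled peak list held a peak on each of the 10 genes, 32 in all, including 3 on ECT2 and 2 on INCENP, which had none in SW480, and 1 on CIT, which had none in DLD-1. Among the lists of other cell-division genes, the mitotic genes carried 29 peaks in SW480 and 63 in DLD-1 over 20 genes, and 17 of the 20 had a peak in both lines. Of the 31 wider cytokinesis genes 17 had a peak in both lines, with 31 and 79 peaks. A peak in both lines was present on 34.4% of all genes tested and on 55.8% of those that reached 10 FPKM in each Input. In both lists most genes had more peaks in DLD-1 than in SW480 (13 of 20 and 17 of 31), as 8 of the 10 genes described here did. This held for 30.1% of all genes tested and for 42.0% of those that reached 10 FPKM in each Input.

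The site positions listed with the peaks do not all fall inside the peaks. In the DLD-1 list, all 4699 sites in plus-strand peaks of 2 or more blocks and all 4377 sites in minus-strand peaks of 1 block lay within a block, with a tolerance of 1 base. In minus-strand peaks of 2 or more blocks, 2060 of 4569 sites (45.1%) did, and the SW480 list gave 1138 of 2343 (48.6%). On the 10 genes this touches RACGAP1, PRC1 and AURKB, where 0 of 13 such sites in DLD-1 lay within a block, whereas the site of KIF23, on the plus strand, does. The counts of sites per peak were used here, and the listed positions of these 3 genes were not.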
